A study of Mus musculus with 12 samples.

Results

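MC38 tumors, grown from a colon carcinoma cell line of the mouse, were compared between CC079 F1 hosts given an antibody against PD-1 (aPD1) and CC079 F1 hosts given an isotype control antibody. The members were the cells whose deposited annotation names the strain CC079: 13938 of the 93126 cells of the series, from 6 of its 48 tumors and 3 of its 12 libraries. Isotype tumors gave 7728 of these cells (2610, 2741 and 2377 in pools 1, 2 and 5) and aPD1 tumors gave 6210 (1685, 2301 and 2224). Each pool held 1 isotype and 1 aPD1 tumor of CC079 hosts, so the tumors form 3 pairs that share a library, and the tumor, never the cell, was the replicate.

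The study asked which host genes shape the response to blockade of the PD-1 checkpoint, using F1 hybrids of C57BL/6J (B6) and inbred strains of the Collaborative Cross, a panel bred from several founder strains. The CC079 hosts were female C57BL/6J x CC079/TauUncJ F1 mice of 8 to 12 weeks. The 7 other hosts, used only for comparison and treated alike, were C57BL/6J itself and its F1 with CC001/UncJ, CC002/UncJ, CC007/UncJ, CC036/UncJ, CC075/UncJ and CC080/TauUncJ. All received MC38 cells, a line of B6 origin, under the skin, and at a tumor volume of 75 to 110 mm3 a single intraperitoneal dose of 200 µg of isotype (clone 2A3) or aPD1 (clone 29F.1A12). Tumors were taken 48 h later, frozen, dissociated, marked with hashtag antibodies and sorted to 90% CD45-positive and 10% CD45-negative cells, with 4 tumors per 10x Genomics 5′ library. The study classed CC079 F1 as a non-responder host from tumor growth in other animals, a class that the sample labels do not give. In all 3 pools the isotype tumor carried a different hashtag from the aPD1 tumor, and the same hashtag stood for the same treatment each time. Hashtag and treatment therefore cannot be told apart.

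PD-1 (gene Pdcd1) is an inhibitory receptor of activated T cells, and its ligand PD-L1 (Cd274) is displayed by tumor cells and macrophages. T and natural killer (NK) cells that are released from inhibition can secrete interferon-γ (IFN-γ). Macrophages and monocytes that sense IFN-γ transcribe the chemokines Cxcl9 and Cxcl10, which attract T cells through the receptor CXCR3, together with guanylate-binding proteins such as Gbp2, Cd274 itself and the feedback inhibitor Socs1. Spp1 encodes osteopontin, a secreted protein that marks another macrophage state in tumors. The values below are therefore ordered from the T and NK cells, through the macrophages as a whole, to the separate macrophage and monocyte clusters.

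Several features of the libraries moved with treatment and are given before the results. The 6 tumors held 9011019 to 13504240 UMIs (unique molecular identifiers, each marking 1 captured transcript). The median UMIs per cell were higher in the aPD1 tumor of each pair, with 4174, 3405 and 2939 in isotype and 5652, 4360 and 3806 in aPD1 tumors of pools 1, 2 and 5. Genes of RNA quality and depth (mitochondrial and nuclear transcripts, 8 measured) summed to 20272 to 23691 CPM (the UMIs of a gene scaled to the same total of UMIs in every tumor) in isotype and 17888 to 18852 CPM in aPD1 macrophages, lower in all 3 pairs. Among the 26153 cells of these 3 pools, 296 barcodes (1.14% of the distinct barcodes) occurred in more than 1 library. The part of these differences in the results was not tested. The CC079 animals also did not form a uniform group, since the interferon-inducible gene Ifi202b was low in 3 of the 6 tumors, and the pair of pool 1 was discordant for it. Its values are given at the end, and results without the pair of pool 1 are given with the comparisons.

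T and NK cells made up a smaller share of the sorted cells in aPD1 tumors of CC079 hosts than in isotype tumors. Among the cells, 148, 186 and 149 were T/NK cells in the isotype tumors and 24, 65 and 91 in the aPD1 tumors of pools 1, 2 and 5, which gave shares of 5.67%, 6.79% and 6.27% against 1.42%, 2.82% and 4.09%. All 3 isotype tumors lay above all 3 aPD1 tumors. The means were 6.24% ± 0.558 and 2.78% ± 1.33 (SD, n = 3), a difference of −3.46 percentage points (exact sign-flip p = 0.25 over the pairs and exact permutation p = 0.1 over the tumors, both two-sided and the smallest these designs allow). Exact (Clopper-Pearson) 95% intervals, which cover counting error only, ran from 4.81% to 7.79% over the isotype tumors and from 0.915% to 5.00% over the aPD1 tumors. Leaving out the pair of pool 1 gave −3.07 points. Cluster 12 was left unnamed because more of its leading genes were on the red blood cell list than on the T/NK marker list. It had 8 of 8 T/NK markers at 100 CPM or more, and also 8 of 9 monocyte/macrophage markers. Counting cluster 12 with the T/NK cells changed the difference to −3.59.

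Of the clusters behind these shares, 3 of the 27 clusters of the authors' annotation (11.1%) passed the test of their share, each of them lower with aPD1 and each among the 8 T/NK clusters. Cluster 7, led by Lef1 and Tcf7, transcription factors of naive and memory T cells, held 1.88%, 1.24% and 1.89% of the cells in isotype and 0.178%, 0.608% and 0.585% in aPD1 tumors. No aPD1 tumor reached the lowest isotype tumor, and the fitted change was −1.86 on the log2 scale (SE 0.55, adjusted p = 0.0382, edgeR quasi-likelihood test with pool as block) on 128 and 30 cells. Cluster 24, led by the NK receptor genes Ncr1 and Klra8, held 1.07%, 1.24% and 0.673% in isotype and 0.0593%, 0.478% and 0.225% in aPD1 tumors. Its groups were also apart (log2 fold −1.99, SE 0.60, adjusted p = 0.0382), on 78 and 17 cells.

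Cluster 3, which carries the CD8 genes Cd8a and Cd8b1, held 0.421%, 0.109% and 0.547% of isotype and 0.0593%, 0% and 0.135% of aPD1 tumors. The 0 of 2301 cells in pool 2 allows a share of up to 0.130% by a floor of 3 counts, and up to 0.160% by the exact 95% interval. This rested on 27 and 4 cells, and its groups overlapped (log2 fold −2.43, SE 0.80, adjusted p = 0.0494). A UMI of Cd8a or Cd8b1 was present in 61.3% of the cells of cluster 3 (median 2898 UMIs per cell) and in 0.283% of the macrophages of cluster 2 (median 4268 UMIs), which gives the background. Together with cluster 13, whose leading genes include Il2, Ifng and Xcl1, these cytotoxic T lymphocytes (CTL) went from 0.536%, 0.146% and 0.841% to 0.178%, 0.130% and 0.180%, lower in all 3 pairs but overlapping between groups (difference −0.345 points, −0.339 without the pair of pool 1, exact permutation p = 0.3). In cluster 13, with 17 CC079 cells (11 in isotype and 6 in aPD1 tumors), 5 cells (29.4%) had a UMI of Cd8a or Cd8b1 and 4 (23.5%) a UMI of Foxp3. The name CTL for cluster 13 is the study's. None of the 3 cluster calls held without pool as block, when the spread was taken from all 48 tumors, under composition scaling (TMM), among cells of at least 1000 UMIs, or without the pair of pool 1, although the fitted direction stayed the same each time.

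The makeup of the T/NK cells was uneven between pairs. Cluster 8, led by Foxp3, the transcription factor of regulatory T cells, held 30.4%, 55.9% and 34.2% of the T/NK cells in isotype and 58.3%, 53.8% and 64.8% in aPD1 tumors, higher in 2 of 3 pairs. Means were 40.2% and 59.0%, and the first aPD1 value rests on 24 T/NK cells. As a share of all cells the cluster went from 1.72%, 3.79% and 2.15% to 0.831%, 1.52% and 2.65%, lower in 2 of 3 pairs and not past the test (log2 fold −0.67, SE 0.49, adjusted p = 0.45). Foxp3 UMIs were found in 53.2% of its cells and in 0.323% of the macrophages of cluster 2.

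**Figure D1:**
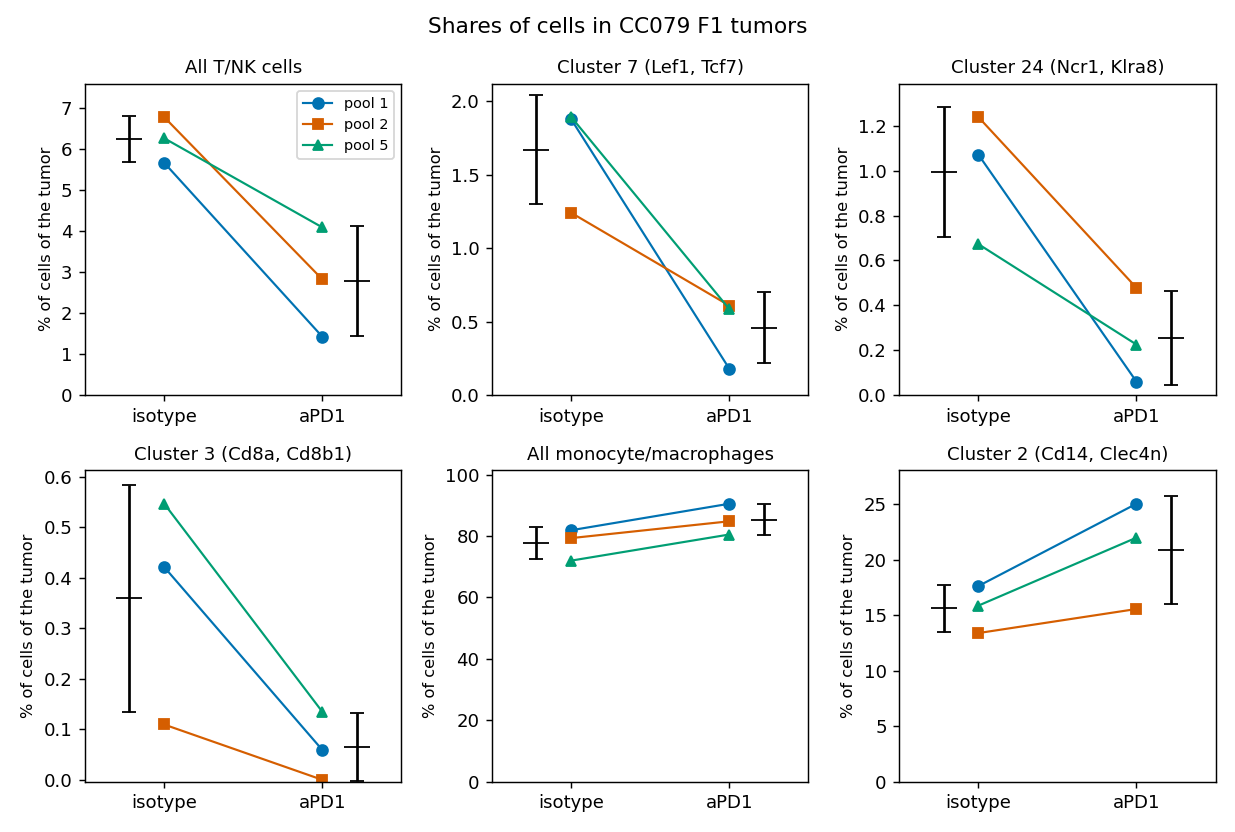
Shares of cells in CC079 F1 tumors, in percent of the sorted cells of the tumor, for isotype and aPD1. Lines join the tumors of a pool, and bars give the mean ± SD (n = 3). T/NK cells, cluster 7 and cluster 24 were lower in every aPD1 tumor than in every isotype tumor, while the macrophage panel rose in each pair with overlapping groups.

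Monocytes and macrophages, counted over 10 clusters, made up most of the sorted cells of each tumor. Their share was 81.9%, 79.3% and 71.98% in isotype and 90.5%, 84.8% and 80.5% in aPD1 tumors. It was higher in all 3 pairs, by a mean of 7.54 percentage points, but the groups overlapped (exact permutation p = 0.2). Without the pair of pool 1 the difference was 6.99 points. Cluster 2, led by Cd14 and Clec4n, was the only cluster of the 27 higher in all 3 pairs (17.6%, 13.4% and 15.9% against 25.0%, 15.6% and 21.99%), and its change did not pass the test (log2 fold 0.40, SE 0.43, adjusted p = 0.612). Among smaller populations, the cDC1 cells of cluster 6, which cross-present antigen to CD8 T cells, had shares of 0.881%, 0.949% and 1.56% in isotype and 0.297%, 0.522% and 1.08% in aPD1 tumors (adjusted p = 0.294). Plasmacytoid dendritic cells (cluster 18, 26 and 6 cells) had 0.345%, 0.182% and 0.505% against 0.119%, 0% and 0.180%, with groups apart and an adjusted p of 0.114. Clusters 9, 12, 14, 19 and 23 were also lower in all 3 pairs without passing the test.

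Within the T/NK cells, 1 of 4249 genes tested (0.0235%) passed, and 178 had an unadjusted p under 0.05. Gzmf, which encodes a granzyme of killer lymphocytes, had 69, 203 and 16 UMIs in isotype and 0, 2 and 1 in aPD1 tumors. In CPM this was 163, 482 and 49.4 against 0, 13.8 and 4.21, with every isotype tumor above every aPD1 tumor (log2 fold −4.81, SE 0.51, adjusted p = 5.18e-06, edgeR). The call held in 7 of 9 alternatives, including without the pair of pool 1 (adjusted p = 0.00568), and was lost without pool as block (adjusted p = 0.352) and with the spread taken from all 48 tumors (adjusted p = 0.91). Gzmf is also among the leading genes of cluster 3, whose share was lower with aPD1, and fewer cells of a type and less RNA per cell were not separated here. The isotype tumor of pool 2, with the most Gzmf UMIs, had 1.61% of its T/NK cells in cluster 3 and 18.3% in cluster 24. The list of cytotoxicity genes had 8 members tested, 6 of them with negative fold changes, where the median over all T/NK genes tested was −0.01. Gzmc, a related granzyme, had 378, 755 and 102 CPM against 40.7, 573 and 16.9 CPM, and Prf1, the pore-forming perforin, 168, 90.2 and 33.9 CPM against 0, 76.0 and 16.9 CPM. Neither passed the test. Gzmb, in contrast, had 775, 684 and 389 CPM in isotype and 1240.0, 1588 and 379 CPM in aPD1 tumors, higher in 2 of 3 pairs.

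Genes of activated and regulatory T cells had mostly positive fold changes, with no call. In the list of regulatory T cell genes, 7 of 8 had positive fold changes and 5 were higher in all 3 pairs, with a median of 0.44 on the log2 scale against −0.01 over all genes tested. For costimulation genes 6 of 6 tested were positive (median 0.54). These fold changes are over the summed T/NK cells, of which the Foxp3-led cluster 8 made up a mean of 40.2% in isotype and 59.0% in aPD1 tumors. Over the cells of all hosts, cluster 8 had the highest levels of Ctla4 (986 CPM), Il2ra (613 CPM) and Tnfrsf4 (782 CPM) of all 27 clusters, and the part of this change in makeup was not tested. Across all T/NK genes tested, 13.5% were higher in all 3 pairs. Il2ra, the high-affinity chain of the interleukin-2 receptor, had 307, 429.8 and 429 CPM in isotype and 976, 732 and 548 CPM in aPD1 tumors, with groups apart (log2 fold 0.85, SE 0.24, adjusted p = 0.735). Lag3, another inhibitory receptor, had 92.2, 119 and 98.7 CPM against 346, 262 and 109.6 CPM, and Tnfrsf9 (4-1BB), a costimulatory receptor, 666, 940.4 and 707 CPM against 1890.4, 1229 and 898 CPM. The antibody's own target, Pdcd1, had 104, 33.2 and 40.1 CPM against 102, 34.5 and 109.6 CPM, a fold change of 0.63 on the log2 scale with a standard error of 0.37. Ifng ranged from 66.5 to 182 CPM in isotype and from 37.9 to 1077 CPM in aPD1 tumors, and its single high value came from the 24 T/NK cells of pool 1. Of 71 Ifng UMIs in aPD1 T/NK cells, 56 were in the 6 cells of cluster 13, against 3 in its 11 isotype cells. Cluster 8 had 34 Ifng UMIs in 200 isotype cells and 2 in 108 aPD1 cells. Clusters 24, 7 and 3 had 33, 32 and 27 in isotype and 2, 2 and 1 in aPD1 tumors, also on fewer aPD1 cells.

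Inside cluster 8 alone, 2 of 2144 genes (0.0933%) passed. Fabp5, a fatty acid-binding protein, had 302, 251 and 164 CPM in isotype and 1194, 657 and 264 CPM in aPD1 cells of this cluster (log2 fold 1.31, SE 0.27, adjusted p = 0.0159), and Def8 had 50.3, 40.2 and 140.3 CPM against 298, 61.1 and 508 CPM (adjusted p = 0.0493). Both were higher in all 3 pairs, in groups that overlapped. In this cluster 1 UMI was 42.6 CPM in the aPD1 tumor of pool 1, and 6 UMIs were 91.7 CPM in that of pool 2. The Def8 values of these tumors therefore rest on few UMIs. The Fabp5 call was lost in every one of its 6 alternatives, and the cluster held 0 calls without the pair of pool 1.

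Summed over all macrophage clusters, 0 of 11970 genes (0.0%) passed with edgeR, 1275 had an unadjusted p under 0.05, and DESeq2 called 11. The leading gene by level was Spp1, with 1796, 1791 and 1279 CPM in isotype and 3007, 2835 and 1815 CPM in aPD1 macrophages. Every aPD1 tumor lay above every isotype tumor, with a log2 fold change of 0.67 (SE 0.07) and an adjusted p of 0.0628 by edgeR and 1.02e-08 by DESeq2. Slc7a2, a transporter of arginine, went from 19.98, 20.1 and 28.7 CPM to 39.7, 33.1 and 49.8 CPM (log2 fold 0.87, SE 0.09, adjusted p = 0.0628). Olr1, a receptor for oxidized lipoprotein, and Cdh1, which encodes E-cadherin, were the next by p, with log2 fold changes of 0.57 and 0.84. Among the lower genes, Klf2, a transcription factor that restrains inflammatory activation, had 249, 427 and 220.1 CPM against 175, 221 and 148 CPM (log2 fold −0.64, SE 0.10, adjusted p = 0.254). Hist1h2bc, Cd300a and Plcl1 followed with fold changes of −0.56, −0.55 and −0.55, also not past the threshold. Without the pair of pool 1 there were again 0 calls, with adjusted p-values of 0.239 for Spp1, 0.215 for Slc7a2 and 0.239 for Klf2, whereas without the pair of pool 5 there were 51 calls, 35 higher and 16 lower.

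Among IFN-γ-responsive genes of the whole macrophage class none passed. Cxcl9 had 327, 225 and 367 CPM in isotype and 512, 373 and 334 CPM in aPD1 macrophages (log2 fold 0.46, SE 0.15, adjusted p = 0.417). It was higher with aPD1 in pools 1 and 2 and lower in pool 5, as were Gbp2 (114, 54.2 and 112 CPM against 214, 124 and 95.5 CPM) and Cd274 (51.4, 48.1 and 48.9 CPM against 83.3, 60.7 and 41.0 CPM). Of the guanylate-binding proteins 8 of 8 and of the immunity-related GTPases, another IFN-γ-inducible family, 7 of 7 had positive fold changes, with medians of 0.40 and 0.41, but only 1 guanylate-binding protein and 0 of the GTPases were higher in all 3 pairs, and no member passed. The mean log2(CPM + 1) of an 18-gene IFN-γ signature was 4.42, 4.27 and 4.65 in isotype and 4.63, 4.31 and 4.38 in aPD1 macrophages, a mean difference of −0.01 (exact sign-flip p = 1). Of the 18 genes 7 are T and NK cell genes, and the difference turned positive without these (0.129), with a pseudocount of 10 (0.032) and without the pair of pool 5 (0.125). The log2 ratio of Cxcl9 to Spp1 over all cells was −2.35, −2.88 and −1.72 against −2.42, −2.74 and −2.24, a difference of −0.15 (exact sign-flip p = 0.75). Its pair differences were −0.07, 0.14 and −0.52 in pools 1, 2 and 5, so that the sign was not the same in all 3 pairs. Cell cycle genes were positive in 16 of 16 cases (median 0.22, 9 of them higher in all 3 pairs), beside 12.0% of all macrophage genes that were higher in all 3 pairs. These values are over the summed macrophages, which include cluster 17, led by histone genes of dividing cells. The part of the makeup of the macrophages in them was not tested.

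The clusters were then tested one by one. Over the 13 clusters with at least 10 cells in each of the 6 tumors, 145 gene-by-cluster tests passed, 5 without pool as block and 17 with DESeq2. The pool block paired the tumors of a library, and 3 of 3 same-pool pairs deviated together in macrophages.

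In cluster 4 Cxcl9, Gbp2, Cd274 and Socs1 were among the genes that rose with aPD1. Its leading genes, Ace, Chil3, Vcan and Plac8, are known from monocytes, and it held 434 cells in isotype and 291 in aPD1 tumors. Of 4112 genes tested 18 (0.438%) passed, 14 of them higher (0.34%) and 4 lower. Cxcl9 had 118, 241 and 154 CPM in isotype and 768, 1071 and 435 CPM in aPD1 cells of pools 1, 2 and 5. The lowest aPD1 tumor lay above the highest isotype tumor, and the log2 fold change was 2.17 (SE 0.19, adjusted p = 1.26e-07). This call held in all 6 alternatives, from a fold change of 1.85 without the pair of pool 1 to 2.41 without that of pool 5, and with an adjusted p of 0.00526 without pool as block.

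Of the list of IFN-γ pathway genes, 14 of 15 tested in cluster 4 had positive fold changes (median 0.38), 6 were higher in all 3 pairs and 1 passed. The guanylate-binding proteins were positive in 5 of 5 cases (median 0.77), 4 of them higher in all 3 pairs and 1 passing, and the immunity-related GTPases in 3 of 3 (median 0.66) with none passing. Over all genes of the cluster 13.8% were higher in all 3 pairs and the median was 0.00. The genes that follow were chosen after their values were seen, from all that passed. Gbp2 went from 193, 109 and 188 CPM to 573, 494 and 447 CPM (log2 fold 1.63, SE 0.18, adjusted p = 6.17e-06), and its groups did not overlap. Calhm6, an ion channel subunit induced in activated macrophages, went from 32.5, 30.2 and 21.2 CPM to 138, 156 and 81.3 CPM (adjusted p = 6.19e-05). The PD-L1 gene Cd274 had 56.8, 64.1 and 66.6 CPM against 206, 252 and 85.3 CPM (log2 fold 1.51, SE 0.27, adjusted p = 0.00632). In pool 5 its rise was small, yet the 3 aPD1 values lay above the 3 isotype values. Socs1 had 67.3, 64.1 and 69.7 CPM against 126, 165 and 163 CPM, and Serpina3g, a protease inhibitor, 9.28, 11.3 and 15.1 CPM against 45.9, 88.7 and 44.7 CPM. Cxcl10 passed (log2 fold 1.31, SE 0.25, adjusted p = 0.00907) with 220.4, 596 and 397 CPM against 1192, 1445 and 390.1 CPM, so that its rise came from pools 1 and 2 alone. The rest of the higher genes were Spp1 (447, 166 and 109 CPM against 1253, 578 and 293 CPM), Sod2, Il1rn, Cfb, Malt1, Ifi205 and Ifi202b. Ifi202b had 23.2, 3.77 and 179 CPM against 352, 0 and 280.4 CPM, and its differences among the CC079 animals are described below.

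The lower genes of cluster 4 were H2-Eb1, Klf2, Fos and Rgs1. H2-Eb1, a chain of the MHC class II molecule, fell from 314, 498 and 506 CPM to 153, 302 and 163 CPM (log2 fold −1.10, SE 0.18, adjusted p = 0.00317), with groups apart. Of 7 MHC class II genes tested, 7 had negative fold changes (median −0.39), H2-Eb1 alone passing, whereas 7 of 7 MHC class I genes were positive (median 0.33), none of them passing. Klf2 fell from 587, 1415 and 554 CPM to 443, 611 and 284 CPM (log2 fold −0.87, SE 0.16, adjusted p = 0.00695). In this cluster 8 T cell markers summed to 0 to 9.09 CPM in isotype and 2.40 to 20.3 CPM in aPD1 tumors, higher in 3 of 3 pairs. Of its 18 calls, 4 held without pool as block (Cxcl9, Gbp2, Calhm6 and Serpina3g), 13 without the pair of pool 1 and 2 without the pair of pool 5.

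**Figure D2:**
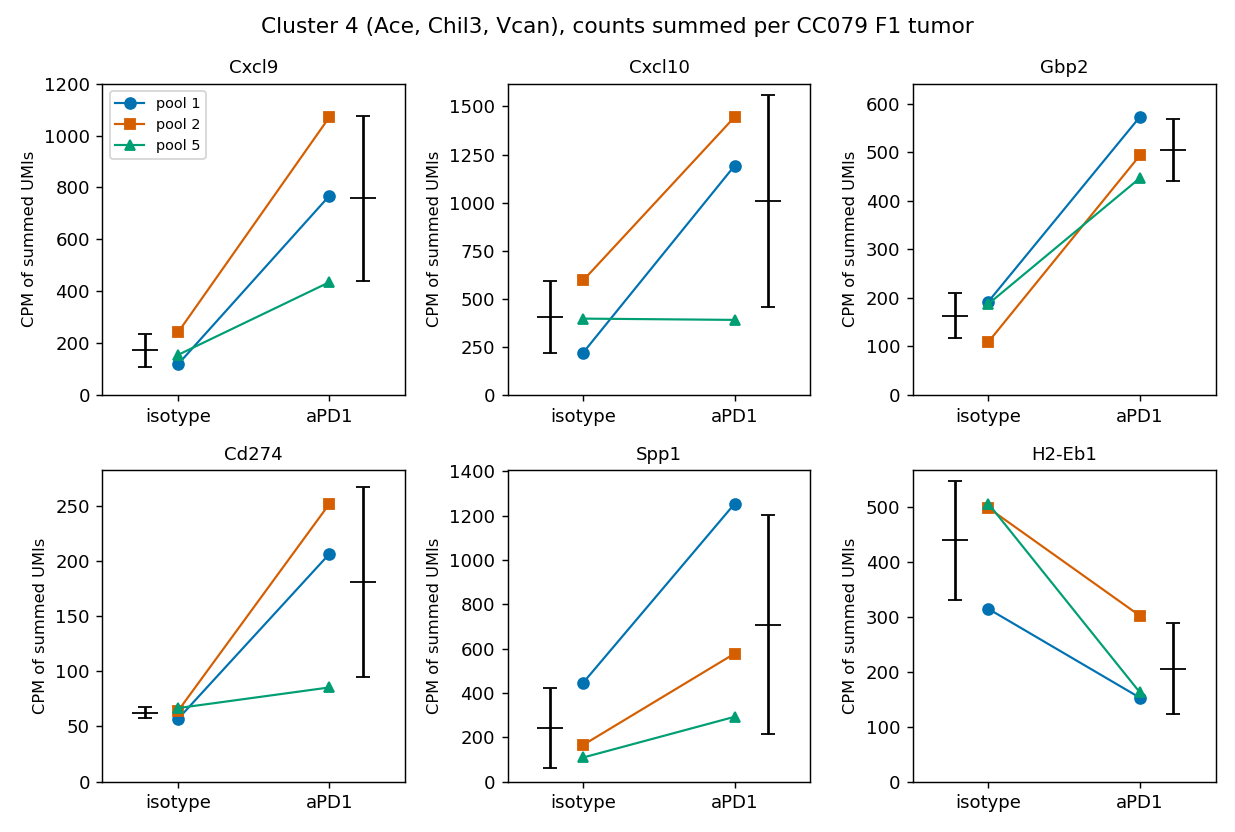
CPM of 6 genes in the cells of cluster 4, summed per CC079 F1 tumor, for isotype and aPD1; lines join the tumors of a pool, and bars give the mean ± SD (n = 3). Cxcl9, Gbp2 and Cd274 lay higher in every aPD1 than in every isotype tumor and H2-Eb1 lower, while Cxcl10 did not rise in pool 5 and the Spp1 groups overlapped.

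The promoter sequences of risen genes of cluster 4 are shown because interferon regulatory factors are known to bind a short motif close to the start site of interferon-responsive genes. RefSeq windows of 300 bases (250 before the transcription start and 50 after it, build GRCm38.p6) were searched on both strands for GAAA followed after any 2 bases by a further GAAA, the core of the interferon-stimulated response element. Capitals mark the matches, and every window is written 5′ to 3′ along the gene.
Gbp2, chr3:142620413-142620712, plus strand, match 59 bases before the start: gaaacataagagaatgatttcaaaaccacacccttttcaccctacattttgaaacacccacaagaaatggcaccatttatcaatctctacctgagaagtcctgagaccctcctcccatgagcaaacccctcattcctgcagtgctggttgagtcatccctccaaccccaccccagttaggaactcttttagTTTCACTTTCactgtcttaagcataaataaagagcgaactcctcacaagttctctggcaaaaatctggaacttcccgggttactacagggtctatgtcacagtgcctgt
Calhm6, chr10:34127923-34128222, minus strand, match 64 bases before the start: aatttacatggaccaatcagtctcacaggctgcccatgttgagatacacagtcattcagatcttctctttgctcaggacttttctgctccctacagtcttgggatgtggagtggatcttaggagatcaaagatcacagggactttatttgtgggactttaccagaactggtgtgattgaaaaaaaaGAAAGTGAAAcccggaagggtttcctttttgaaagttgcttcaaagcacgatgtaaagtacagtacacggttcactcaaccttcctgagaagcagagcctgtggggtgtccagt
Socs1, chr16:10785487-10785786, minus strand, overlapping matches 83 and 77 bases before the start: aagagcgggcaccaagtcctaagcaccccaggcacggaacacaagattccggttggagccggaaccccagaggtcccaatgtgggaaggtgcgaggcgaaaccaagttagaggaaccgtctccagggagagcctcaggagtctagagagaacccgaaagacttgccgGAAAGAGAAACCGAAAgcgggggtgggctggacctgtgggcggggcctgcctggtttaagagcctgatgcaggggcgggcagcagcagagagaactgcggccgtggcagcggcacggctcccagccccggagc
Cxcl10, chr5:92348840-92349139, minus strand, match 213 bases before the start: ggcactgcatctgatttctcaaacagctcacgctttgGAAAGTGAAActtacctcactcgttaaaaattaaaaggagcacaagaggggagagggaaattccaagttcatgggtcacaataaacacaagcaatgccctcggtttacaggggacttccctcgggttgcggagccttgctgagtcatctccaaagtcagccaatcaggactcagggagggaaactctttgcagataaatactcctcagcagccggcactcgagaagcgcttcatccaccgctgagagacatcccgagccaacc
Cxcl9, chr5:92328030-92328329, minus strand, no match: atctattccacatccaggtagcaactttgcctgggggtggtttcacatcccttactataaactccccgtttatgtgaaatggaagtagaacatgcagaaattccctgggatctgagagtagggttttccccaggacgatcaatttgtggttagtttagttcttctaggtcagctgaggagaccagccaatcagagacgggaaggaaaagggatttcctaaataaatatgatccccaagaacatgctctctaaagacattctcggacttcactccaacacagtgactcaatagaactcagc
The match in Gbp2 is the reverse complement of the motif, and those in the other windows are on the strand shown. Windows were given for 12 of the 14 higher genes (all but Cfb and Malt1), 15 windows in all as some genes have several, and 6 of the 15 windows held the motif, as did 3.44% of all 32851 windows. Not all windows are shown. Of those left out, the window of Ifi205 and one of Spp1 held this motif. The windows of Cd274, Serpina3g, Sod2, Ifi202b and Il1rn did not. Of the 12 genes that rose in cluster 14, described next, 11 had a window (all but Ly6a), 1 each, and 6 of these windows (54.5%) held the motif. The windows of Gbp2 and Cxcl10 are in both counts, and those of Ifit3 and Ifit3b hold the same matched letters, so the counts are not independent. A match describes the letters only and is not evidence of binding, and the genes were chosen by their change.

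Interferon-responsive genes also rose in cluster 14. Its leading genes, Cd209a, Mgl2 and Ccl17, are known from conventional dendritic cells of type 2 and from monocyte-derived cells, and it reached no name by its markers. In its 512 isotype and 321 aPD1 cells, 12 of 7522 genes (0.16%) passed, all 12 of them higher. Retnla, a secreted protein of alternatively activated macrophages, had 457, 207 and 935 CPM in isotype and 932, 742 and 2059.9 CPM in aPD1 cells (log2 fold 1.32, SE 0.13, adjusted p = 1.77e-05), rising in each pair from unequal starting levels; it is also among the 10 leading genes that define the cluster. Cxcl9 had 212, 248 and 188 CPM against 719, 923 and 288 CPM (log2 fold 1.45, SE 0.17, adjusted p = 0.000175), with groups apart and the smallest rise in pool 5. The remainder, outside the naming rule and named because they passed, were AW112010, Ly6a, Ifit3, Gbp2, Cxcl10, Fcgr4, C3, Isg15, Ifit3b and Fgl2. Among them Gbp2 went from 134, 54.2 and 67.4 CPM to 275, 281 and 104 CPM and Ifit3 from 19.95, 61.3 and 21.1 CPM to 89.9, 112 and 56.8 CPM.

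Whole lists had positive fold changes in this cluster. Guanylate-binding proteins were higher in all 3 pairs in 7 of 7 genes tested (median 1.02), immunity-related GTPases in 6 of 7 (median 1.117) and type I interferon-stimulated genes in 13 of 15 (median 0.71), compared with 11.0% of all genes of the cluster and a median of 0.00. Gbp2, Isg15 and Ifit3 passed among them. The RNA quality list summed to 13901 to 14585 CPM in isotype and 12971 to 13353 CPM in aPD1 cells, lower in 3 of 3 pairs. Cell cycle genes were negative in 14 of 16 cases (median −0.28). Without pool as block 0 genes of cluster 14 passed, without the pair of pool 1 there were 5 (4 of them shared) and without the pair of pool 5 there were 120 (12 shared). In the migratory dendritic cells of cluster 11, Cxcl9 had 64.3, 42.7 and 283 CPM in isotype against 951, 961 and 515 CPM in aPD1 cells, with groups apart, but no gene of that cluster passed (Cxcl9 adjusted p = 0.783).

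Cluster 17, macrophages led by histone genes of dividing cells (304 and 298 cells), held both rises and falls. Of 7610 genes 28 (0.368%) passed, 12 higher and 16 lower (0.21%). Arg1, the arginase that consumes arginine, rose from 138, 89.5 and 138 CPM to 272, 148 and 394 CPM (log2 fold 1.07, SE 0.15, adjusted p = 1.64e-06), above every isotype tumor. Acod1, which makes itaconate, rose from 12.1, 28.8 and 2.82 CPM to 76.4, 88.0 and 9.99 CPM (log2 fold 1.94, SE 0.30, adjusted p = 5.02e-06). Dcstamp, a membrane protein of cell fusion and dendritic cells, fell from 31.0, 42.6 and 124 CPM to 15.3, 2.00 and 27.1 CPM (log2 fold −2.19, SE 0.32, adjusted p = 1.64e-06). Of the MHC class II list, 4 of 7 genes tested fell (H2-Aa, H2-Ab1, H2-Eb1 and Cd74), and 6 were lower in all 3 pairs. H2-Eb1 had 1390.3, 1024 and 2085 CPM against 1240.2, 257 and 1570.4 CPM, so the fall was largest in pool 2. Unlike in clusters 4 and 14, Cxcl9 fell, from 303, 136 and 319 CPM to 140.1, 129 and 128 CPM (log2 fold −0.80, SE 0.15, adjusted p = 0.000811), a call that was lost in 4 of its 6 alternatives, among them without the pair of pool 1 (adjusted p = 0.229). The mitochondrial transcripts mt-Nd1 and mt-Cytb fell with these genes, and the RNA quality list summed to 25756 to 30146 CPM in isotype and 20166 to 21568 CPM in aPD1 cells. No gene of the cluster passed without pool as block, DESeq2 called 1, 20 passed without the pair of pool 1 (13 of them shared) and 9 without that of pool 2 (8 shared). The 4 MHC class II genes that fell here had positive fold changes in cluster 19 and negative ones in cluster 9, with none passing in either. For H2-Ab1 these were 1.17 and −0.41, and for Cd74 0.78 and −0.18.

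In cluster 21, led by the type I interferon-stimulated genes Ifit3, Rsad2 and Cxcl10 (434 and 344 cells), several immediate-early genes fell. Of 5996 genes 49 (0.817%) passed, 35 of them lower (0.584%). Btg2, an antiproliferative gene of the early response, had 359.8, 266 and 354 CPM in isotype and 147, 151 and 141 CPM in aPD1 macrophages. The groups were widely apart (log2 fold −1.14, SE 0.15, adjusted p = 5.51e-07), and Btg2 was the only gene of the cluster that also passed without pool as block (adjusted p = 0.0440). Klf2 went from 376, 629 and 233 CPM to 186, 205 and 141 CPM (log2 fold −1.17, SE 0.15, adjusted p = 5.51e-07). On the list of immediate-early and heat shock genes 7 of 15 tested passed, all lower: Fosb, Jun, Junb, Jund, Atf3, Hspa1a and Hspa1b. Jun, a subunit of the AP-1 factor, had 1331, 1488 and 1025 CPM against 936, 1005 and 512 CPM. Tnf and Ccl3, inflammatory cytokines, and Ccl5, a chemokine (785, 624 and 1409 CPM against 190.1, 579.8 and 196 CPM), fell as well. Spp1 (1767, 2533 and 752 CPM against 3634, 2679.6 and 1604 CPM), Ch25h, Mmp12, Mrc1 and the complement genes C1qa and C1qb rose. The type I interferon-stimulated genes, which define the cluster, had no call in 15 tested (10 negative). Without the pair of pool 1 there were 12 calls (10 shared), without that of pool 2 there were 8 (7 shared), and without that of pool 5 there were 86 (37 shared).

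The largest macrophage clusters were 26 and 2. In cluster 2 (1204 and 1269 cells) 9 of 9219 genes (0.0976%) passed, 8 of them higher. Spp1 rose from 2833, 2933 and 1637 CPM to 4326, 5000.2 and 2447 CPM (log2 fold 0.68, SE 0.08, adjusted p = 0.000904), in each pair but with overlap between the groups; it is among the leading genes of this cluster. Ccl17, a chemokine for CCR4-bearing T cells, rose from 4.95, 3.24 and 2.12 CPM to 31.0, 11.0 and 8.90 CPM (log2 fold 2.36, SE 0.32, adjusted p = 0.00328). Camk1d, a calcium-dependent kinase, fell from 1151, 1276 and 925 CPM to 583, 660.0 and 688 CPM (log2 fold −0.77, SE 0.11, adjusted p = 0.00328). Without the pair of pool 1 the cluster held 0 calls, without that of pool 2 there were 52 and without that of pool 5 there were 86, with all 9 shared in the latter cases. In cluster 26, led by Cxcl13 and the C1q genes (1608 and 1457 cells), 14 of 9949 genes (0.141%) passed. The matrix protease Mmp12 rose from 28.1, 4.26 and 18.96 CPM to 60.9, 25.1 and 35.6 CPM (adjusted p = 0.0177), and Cxcl2, a neutrophil chemokine, from 261, 449.8 and 289 CPM to 499, 751 and 331 CPM (adjusted p = 0.0195). The nuclear transcript Malat1 fell from 4075, 3629 and 5286 CPM to 3136, 2773 and 3910.1 CPM, and Rgs1, a regulator of chemokine receptor signaling, from 1156, 1268 and 1059 CPM to 901, 996 and 679 CPM. Cluster 26 held 0 calls without pool as block and with DESeq2, 188 without the pair of pool 1 (13 shared), 5 without that of pool 2 (4 shared) and 152 without that of pool 5 (14 shared).

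Spp1 was the gene called in the most clusters, higher in clusters 2, 4, 9, 21 and 26. None of these 5 calls held without pool as block (adjusted p from 0.429 to 0.998). Without the pair of pool 1 those of clusters 4, 9 and 26 held, without that of pool 2 those of clusters 2, 4 and 21, and without that of pool 5 those of clusters 2, 4, 21 and 26. In cluster 9, where 4 of 2375 genes (0.168%) passed and which is led by Lyve1 and Folr2 as known from resident-like macrophages, it went from 486, 556 and 411 CPM to 932, 1167 and 919 CPM (adjusted p = 0.00625), beside a rise of Rnase2a from 173, 283 and 153 CPM to 1411, 547 and 502 CPM (adjusted p = 0.00136). Ccl3 and Rgs1 fell there. In cluster 5 (6 of 8632 genes, 0.0695%) the heat shock cognate Hspa8 and the interferon-induced Ifitm1 rose and Fgf13 and Abcg3 fell, and in cluster 19 (3 of 3156 genes, 0.0951%) Olr1 rose from 15.01, 37.6 and 29.0 CPM to 448, 97.2 and 139.7 CPM (log2 fold 3.01, SE 0.47, adjusted p = 0.00123) while Hist1h2bc and Cmss1 fell. The Olr1 call was lost without the pair of pool 1, at a log2 fold change of 1.77. Without that pair cluster 5 held 20 calls and cluster 9 held 12, each with 4 shared, and without the pair of pool 5 cluster 9 held 0 and cluster 5 held 182 (6 shared). Clusters 11, 20 and 27 held 0 calls with edgeR (71, 43 and 246 genes at an unadjusted p under 0.05) and with DESeq2.

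**Figure D3:**
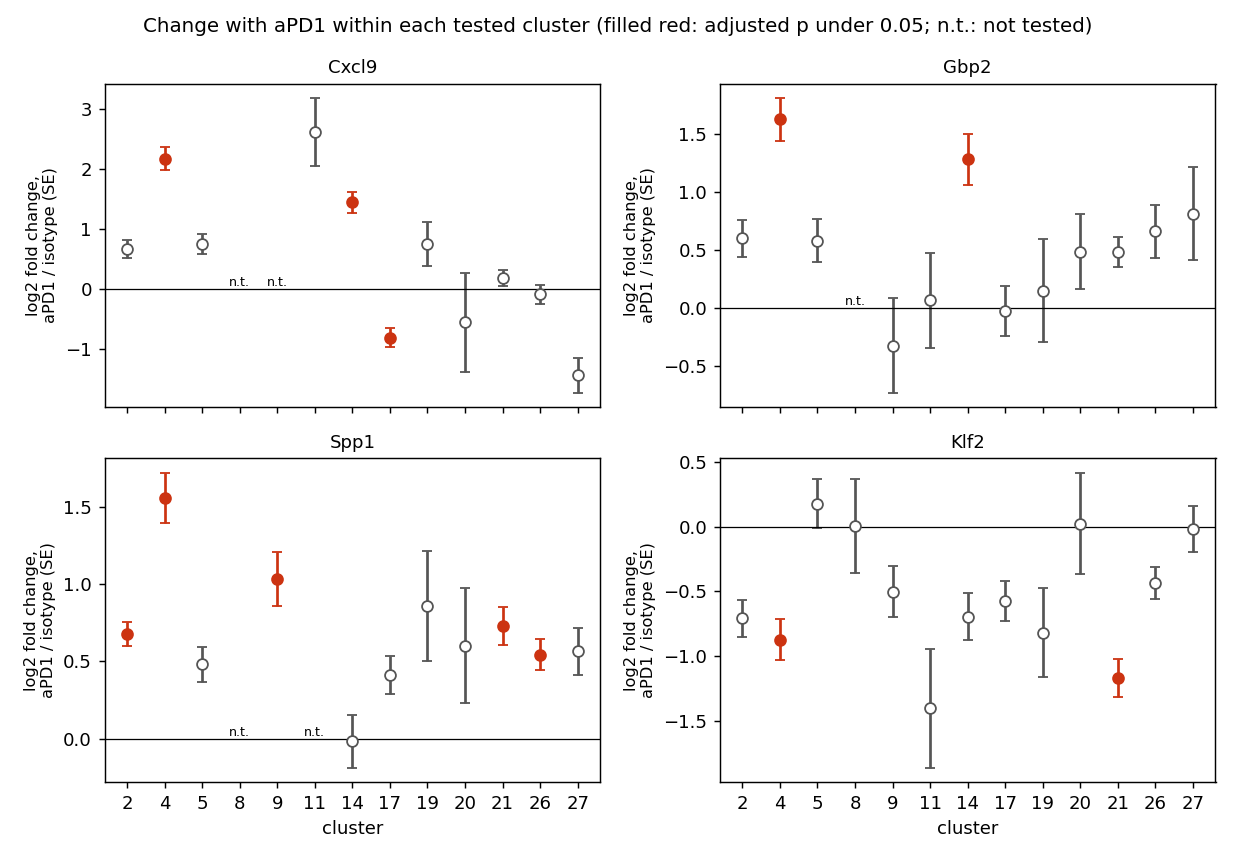
Fitted log2 fold change (aPD1 over isotype, bars ± SE of the edgeR fit) of Cxcl9, Gbp2, Spp1 and Klf2 within each tested cluster of CC079 F1 tumors; filled red points have an adjusted p under 0.05, open points do not, and n.t. marks genes not tested. Cxcl9 passed upward in clusters 4 and 14 and downward in cluster 17, and Spp1 passed upward in 5 clusters.

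The treatment difference of CC079 hosts was then set against that of the other 7 hosts, as the difference between the aPD1 and the isotype tumor within a pool. For the T/NK share the 3 CC079 pairs changed by −4.25, −3.96 and −2.18 percentage points, while the 21 other pairs ran from −40.5 to 16.3 points, 10 of them lower and 11 higher. The means differed by 0.215 points (exact permutation p = 0.973 over all choices of 3 pairs from the 24, two-sided). Against single hosts the difference ran from −10.3 points (CC075) to 7.59 points (CC036), and its changes under other settings are given in the closing section. For the CTL share, the macrophage share, the signature and the log2 ratio of Cxcl9 to Spp1 the exact permutation p was 0.619, 0.677, 0.838 and 0.697, and all 5 adjusted values were 0.973. No difference from the other hosts was thus detected with 3 CC079 pairs. For single genes, 0 of 13010 macrophage genes and 0 of 8607 T/NK genes had a treatment effect that differed between CC079 and the mean of the other hosts in edgeR (540 and 407 at an unadjusted p under 0.05, 1 and 1 called by DESeq2).

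For some measures the levels of aPD1 CC079 tumors lay outside those of the other hosts, which is given as a description. All 3 aPD1 CC079 tumors had a lower T/NK share (1.42% to 4.09%) than each of the 21 other aPD1 tumors (4.85% to 33.5%) and a lower CTL share (0.130% to 0.180% against 0.518% to 13.1%). These CTL shares rest on 4 cells of cluster 3 and 6 of cluster 13 over the 3 tumors together. The macrophage share of the 3 aPD1 CC079 tumors (80.5% to 90.5%) was above that of each other aPD1 tumor (49.97% to 79.8%). Among isotype tumors, 17 of 21 others lay above and 2 below all CC079 tumors in T/NK share. In CTL share 19 of 21 other isotype tumors lay above and 0 below all CC079 tumors. The log2 ratio of Cxcl9 to Spp1 in aPD1 tumors was −2.74 to −2.24 in CC079 and −2.16 to 2.14 in other hosts. The isotype signature of CC079 (4.27 to 4.65) reached below the range of other isotype tumors (4.46 to 5.65). Of these, 19 of 21 lay above and 0 below all CC079 tumors. The remaining levels lay within the outer limits of the other hosts. The isotype macrophage share of CC079 (71.98% to 81.9%) lay within the range of other isotype tumors (38.8% to 83.6%). In the aPD1 signature 20 of 21 other tumors were above all CC079 tumors and 1, a CC007 tumor of 53 cells, was below them. In the isotype log2 ratio 18 of 21 other tumors were above all CC079 tumors and 1 was below them (−3.05). CC001 F1 tumors of the same libraries (pools 1 and 2) had T/NK shares of 13.7% and 6.83% in isotype and 6.93% and 13.6% in aPD1, and the CC002 F1 tumors of pool 5 had 23.5% and 23.8%, so low shares were not common to all tumors of these libraries.

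**Figure D4:**
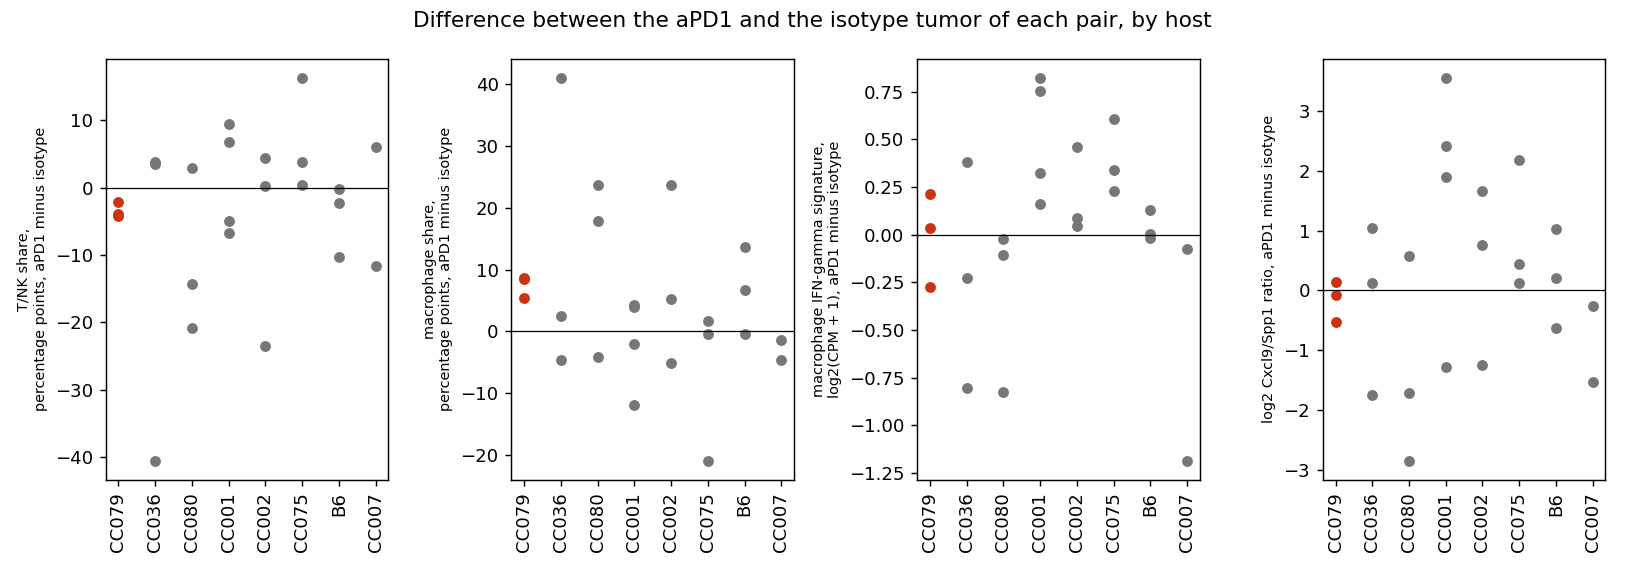
Difference between the aPD1 and the isotype tumor of each pair, by host (red, CC079; gray, other hosts; each point is 1 pair), for T/NK share and macrophage share in percentage points, the macrophage IFN-γ signature in log2(CPM + 1) and the log2 ratio of Cxcl9 to Spp1. The CC079 pairs lie inside the range of the other pairs in all 4 panels, below 0 in the first and above 0 in the second.

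The 6 CC079 animals differed among themselves in Ifi202b, a member of the interferon-inducible p200 family (chr1:173962568-173982744, minus strand, GRCm38, GENCODE vM21). In macrophages it had 6.23, 1.00 and 150.0 CPM in isotype and 184.7, 0.896 and 104.5 CPM in aPD1 tumors of pools 1, 2 and 5. The gene was thus high in 3 tumors and low in 3, matching within the pairs of pools 2 and 5 and not within pool 1. Its range over the CC079 tumors was 6.61 on the log2 (CPM + 1) scale, whereas no other host had a range above 1.49, with all CC036, CC080, CC001 and CC002 tumors at 66.8 CPM or more and all CC075, CC007 and B6 tumors at 4.14 CPM or less. Among macrophage genes that reached 15 CPM, 2 had a range above 2 in CC079 that was also more than 1 above that of every other host. The other was Zfp981 (chr4:146502027-146539395, plus strand), with 17.5 and 23.4 CPM in the pair of pool 5 and 1.56 to 2.34 CPM in the other CC079 tumors. Of 7939 macrophage genes with a mean of 10 CPM or more, 884 (11.1%) separated the 3 tumors of high Ifi202b from the 3 of low Ifi202b, in either direction. A fixed split of 3 against 3 would have a share of 0.1 if all orders of the tumors were equally likely. Whether this difference between animals has a part in the results above was not tested, beyond the values without the pair of pool 1.

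**Figure D5:**
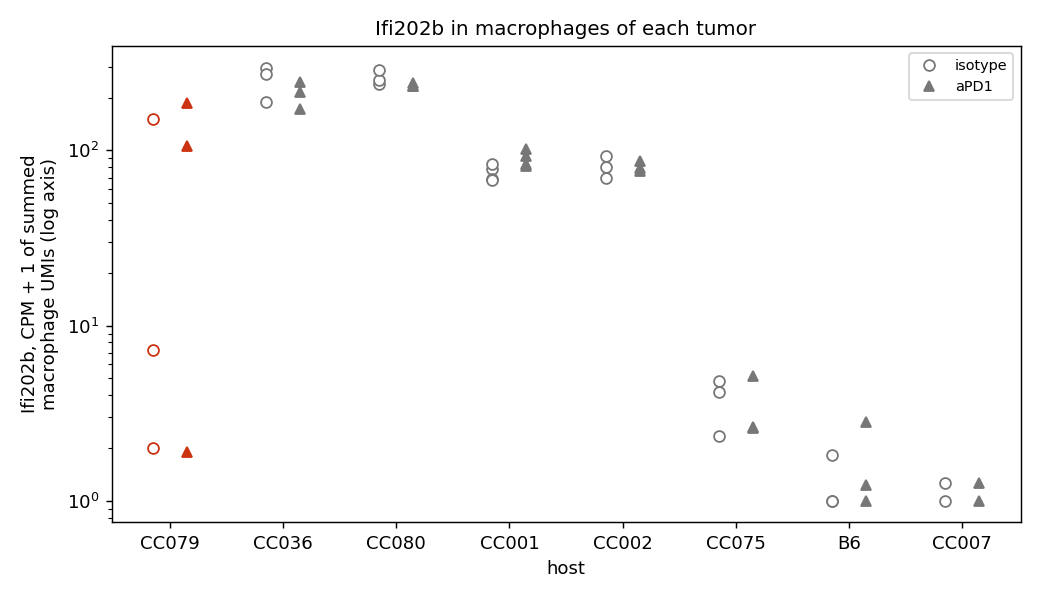
Ifi202b in the macrophages of each tumor, as CPM + 1 of summed UMIs on a log axis, by host (red, CC079; open circles, isotype; triangles, aPD1). CC079 tumors fall at both ends of the range, whereas tumors of each other host lie close together.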

How the data were processed

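The authors made the deposited table of UMI counts (whole-number counts per gene and cell) with Cell Ranger against GRCm38 (GENCODE vM23), demultiplexed the hashed tumors, removed cells above 15% mitochondrial or 45% ribosomal reads (highest left, 14.99% and 44.99%) and clustered the rest with Seurat 5.0.1. Removal of doublets other than by hashtag is not given in the sources used here. Groups, pools and clusters came from the deposited annotation; clusters were named here from marker lists. Counts were summed per tumor and cluster and tested with edgeR 4.0.16 (quasi-likelihood, TMM, filterByExpr, pool as block, Benjamini-Hochberg threshold 0.05; R 4.3.3), with DESeq2 1.42.0 as an alternative. Cluster sizes were tested likewise with the cells of the tumor as offset. Shares and scores used exact tests (scipy 1.17.1). Pool paired the tumors because both were in 1 library; same-pool deviations correlated at 0.316, 0.706 and 0.603 over 3066 macrophage genes and at −0.01, 0.07 and 0.26 over 3158 T/NK genes. The fits were checked on simulated data. Genes were named by the lowest p per direction among those of 10 CPM or more that moved alike in 3 pairs, beside fixed genes. The members and lists were chosen with earlier results of these data known. The clusters were called on these same genes. Each tumor came from a different animal. A second motif was also searched and is not reported here.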

Additional observations from a re-analysis of the deposited data

Results flagged for a closer look

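The T/NK share moved in opposite directions in CC079 and CC075 F1 hosts. All 3 CC079 pairs were lower with aPD1 and all 3 CC075 pairs higher (0.432 to 16.3 percentage points, mean 6.88), a difference between hosts of −10.3 points. The macrophage share was higher with aPD1 in all 3 CC079 pairs and lower in both CC007 pairs (−4.61 and −1.31 points, mean −2.96), a difference of 10.5 points. The CC007 pair at −1.31 points rests on an aPD1 tumor of 53 cells (56.6% against 57.9%), and without it 1 CC007 pair at −4.61 points is left. Neither difference was tested, and with 7 other hosts and several measures some opposite signs occur among so few pairs.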

How the results depend on the processing

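The values rest on 3 tumors a side, and in T/NK cells on as few as 24 cells a tumor. The part of this low depth in the number of T/NK calls was not tested. Without the replicate block (the pairing by pool) the calls within clusters went from 145 to 5, those of cluster shares from 3 to 0 and those of T/NK genes from 1 to 0, and of the 38 called genes and shares that the naming rule picked, 36 lost their call with the same direction, Cxcl9 in cluster 4 and Btg2 in cluster 21 keeping theirs. The cause was not tested. DESeq2 called 17 genes within clusters, 11 in macrophages, and 1 in each test against other hosts. With no filter on low counts the macrophage, T/NK and both host tests gave 279, 3, 17 and 7 calls. Among cells of at least 1000 UMIs, macrophages had 2 calls and cluster shares 0. With all 48 tumors in the fit the T/NK genes and cluster shares had 0 calls, with composition scaling the cluster shares had 0, and library size scaling gave 2 T/NK genes. Leaving out each pair in turn gave 0 to 51 macrophage genes, 1 to 10 T/NK genes, 127 to 693 calls within clusters and 0 to 1 cluster shares. It moved the IFN-γ signature difference between −0.118 and 0.125, the log2 Cxcl9/Spp1 difference between −0.300 and 0.031, the T/NK difference from other hosts between −0.427 and 0.607 points and that of the signature between −0.170 and 0.074. The signature difference also changed sign with a pseudocount of 10 (0.032) and without its T and NK cell genes (0.129). Against other hosts, leaving out tumors of under 500 cells turned the T/NK difference to −1.12 points, and comparing with CC036 and CC080 alone turned the macrophage share to −5.18 points, the signature to 0.260 and the log2 ratio to 0.606, and moved the T/NK difference from 0.215 to 7.42 points (exact permutation p = 0.536). Within CC079 hosts, the differences in T/NK, CTL and macrophage share between aPD1 and isotype kept their sign under all alternatives run.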
